A study of Mus musculus with 12 samples.

Results

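Lysosomal glycosidases and one lipid hydrolase were followed across 4 brain regions in sorted mouse microglia. The set comprised 7 genes, Hexa, Glb1, Gusb, Gaa, Naglu, Man2b1 and Lipa, found by symbol among the 23337 gene symbols of the count table. All 7 passed the filter on low counts, which left 12217 genes to be tested. The 12 libraries were bulk RNA-seq libraries of microglia, the resident macrophages of the brain, from male wild-type C57BL/6N mice at postnatal day 60. There were 3 libraries each from cerebellum, striatum, hippocampus and cortex, and no treatment or genetic change separated the regions. Each region was dissected from 3 to 5 mice and combined, and 3000 live cells per library were sorted through a gate for TMEM119, a microglial surface protein, with low CD45 and with CD11b. Whether the 3 libraries of a region stem from different mice is not stated in the labels; the p-values therefore reflect how far these libraries differ, and part of that may be technical.

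Lysosomes break down material that a cell has engulfed or taken out of its own cytoplasm, and glycosidases are the lysosomal enzymes that remove sugars one by one from glycolipids, glycoproteins, glycosaminoglycans and glycogen. Loss of one such enzyme leaves its substrate to pile up, which causes a lysosomal storage disease, often with neurodegeneration. Microglia engulf myelin, synapses and dead cells and are rich in lysosomes.

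Total counts per library ran from 6479839 in striatum 2 to 14833340 in cortex 2. Levels are given as CPM, read counts scaled to a common library size with factors from the trimmed mean of M values (TMM). The sorted cells carried the microglia markers: all 10 markers on the list were tested, and their summed level ran from 29634 to 40648 CPM per library. Summed markers of other cells were low, and some sums rested largely on a single gene. Border-associated macrophage markers summed to 255 to 857 CPM, astrocyte markers to 36.2 to 113 CPM, oligodendrocyte markers to 19.1 to 49.5 CPM, endothelial markers to 0.323 to 42.6 CPM, neuronal markers to 1.88 to 29.9 CPM and blood leukocyte markers to 0.162 to 17.3 CPM. In cerebellum 1, Mrc1 made up 229 of the 255 CPM of border-associated macrophage markers and Slc1a3 47.7 of the 54.8 CPM of astrocyte markers. Pecam1 made up 38.2 of the 39.6 CPM of endothelial markers there, while the endothelial gene Cldn5 had a count only in hippocampus 2 (0.092 CPM). Choroid plexus and ependymal markers summed to 676.5 CPM in striatum 2 and to at most 223 CPM in the other libraries. Of the defining markers, the monocyte gene Ly6c2 had no count in any library. Their part in the results below was not tested. In bulk RNA, fewer cells of a type and less RNA per cell cannot be told apart.

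The 7 genes were expressed in every library, from 898 counts for Glb1 in cerebellum 2 to 26035 counts for Man2b1 in cortex 2. Per length of the main coding transcript, Hexa had the highest level, at 608.6 CPM per kb over the 12 libraries, followed by Man2b1 at 452 and Gusb at 381 CPM per kb. Naglu stood at 113 CPM per kb, Lipa at 82.6, Gaa at 69.8 and Glb1 at 50.8 CPM per kb. With the bases of all annotated exons of a gene as its length, Gusb (225 CPM per kb) came before Man2b1 (215), and Gaa (53.1) and Glb1 (40.5) came before Lipa (36.2), so the order among these neighbours depends on the transcript chosen. In CPM without regard to length, Man2b1 had the 36th highest mean among the 12217 genes tested, Hexa the 68th and Gusb the 81st.

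Between hippocampus and cortex, the fitted level of all 7 genes lay higher in hippocampus, by log2 differences of 0.04 for Naglu to 0.51 for Gaa with a median of 0.19. None of the 7 passed (edgeR's quasi-likelihood test with adjustment after Benjamini and Hochberg over all genes, adjusted p = 1.00 each), none had an unadjusted p under 0.05, and each 95% interval of a log2 difference included 0. Over all 12217 genes the median log2 difference was −0.02, 47.1% of genes lay higher in hippocampus, and 0% passed the test. The unadjusted p was under 0.05 for 0.671% of genes in the higher and 0.344% in the lower direction. The 7 genes were chosen with results of these data known, so their shared direction is no independent evidence. Of the 10 microglia markers 7 lay higher and 3 lower in hippocampus, with log2 differences of −0.06 to 0.28 and a median of 0.17. Their summed level was 30759 to 35089 CPM in hippocampus and 29634 to 30409 CPM in cortex, without overlap. The oligodendrocyte markers lay higher in hippocampus as well, in 4 of the 4 tested, and their sum was 38.2 to 43.0 CPM in hippocampus and 28.9 to 31.1 CPM in cortex, without overlap. Of the neuronal markers 4 of 5 lay higher, with sums of 6.83 to 29.9 CPM in hippocampus and 1.88 to 15.4 CPM in cortex that overlapped. The border-associated macrophage markers went the other way in 5 of 7, with sums of 372 to 681 CPM in hippocampus and 277 to 857 CPM in cortex that overlapped. The part of these markers in the difference was not tested.

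**Figure D1:**
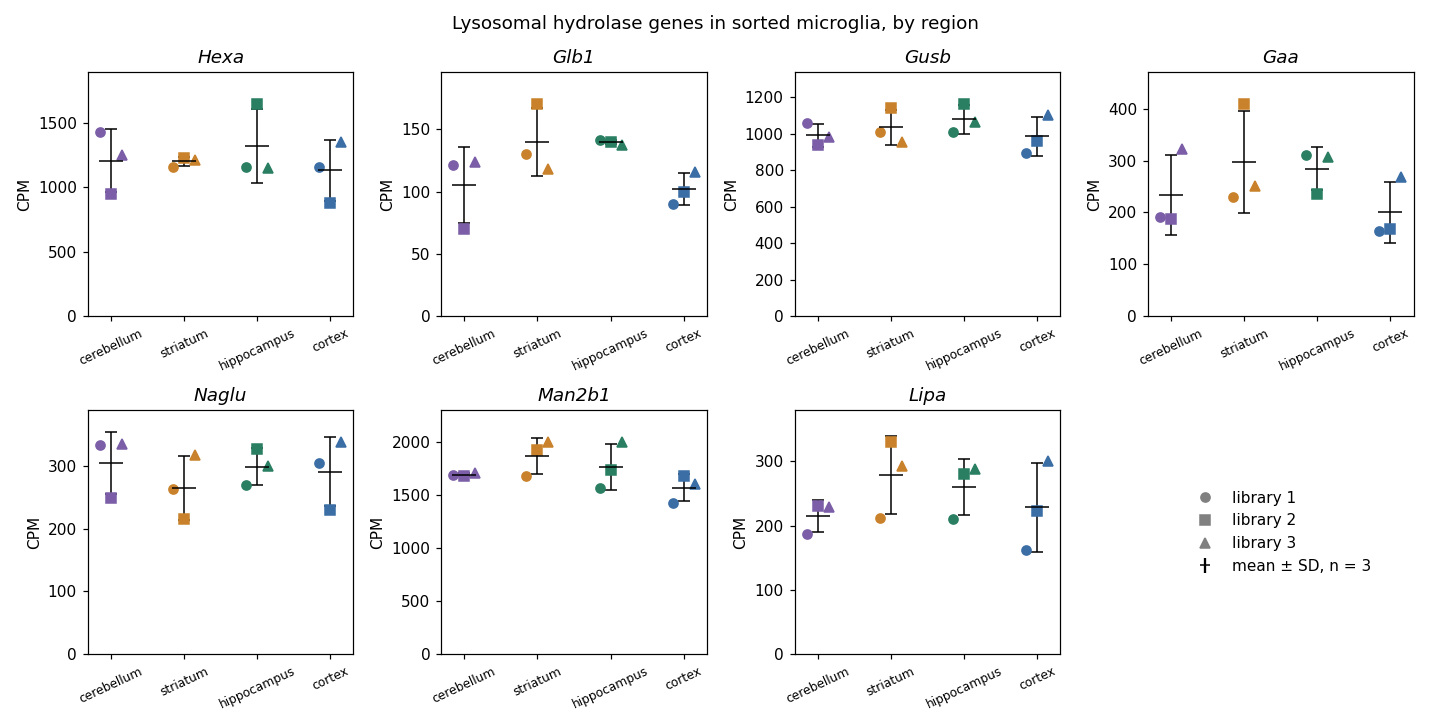
Expression of the 7 genes in CPM (vertical axes, from 0) in the 12 libraries, grouped by region; symbols are single libraries and black bars show the mean ± SD of 3 libraries. For Glb1 the hippocampus libraries (137.9 to 141 CPM) lie above all cortex libraries (90.2 to 116 CPM), and for the other 6 genes the libraries of these regions overlap.

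Glb1 encodes the lysosomal beta-galactosidase, which removes galactose from GM1 ganglioside and keratan sulfate, and its loss causes GM1 gangliosidosis. It lies on chromosome 9, from 114401076 to 114474898 on the plus strand (GRCm38), and its main coding transcript has 16 exons. Its level was 141, 140.2 and 137.9 CPM in hippocampus 1, 2 and 3, against 90.2, 99.6 and 116 CPM in cortex 1, 2 and 3. The hippocampus libraries were close together and all higher than the cortex libraries, with means of 139.8 ± 1.82 and 102.0 ± 13.1 CPM (SD, n = 3 each). The log2 difference was 0.45 (SE 0.24, 95% interval −0.07 to 0.98; edgeR, unadjusted p = 0.0849, adjusted p = 1.00), or 1.37-fold. Libraries did not overlap, with hippocampus higher, for 3.63% of all genes tested. Glb1 shares 165 exonic bases with Tmppe, a phosphoesterase gene on the same strand that had 5814 counts over the 12 libraries, and how reads of the shared bases were assigned is not given in the sources used here.

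Glb1 was also the one member whose libraries did not overlap in another pair of regions, in 3 of the 42 combinations of member and pair in all. In striatum it stood at 130.2, 171 and 119 CPM in libraries 1, 2 and 3, all above the cortex libraries (log2 difference 0.45, SE 0.24; edgeR, adjusted p = 0.80). Without striatum 2 this difference was 0.29. Such a gap with striatum higher was found for 4.61% of genes tested. In cerebellum Glb1 was at 122, 70.1 and 124 CPM in libraries 1, 2 and 3, all below the hippocampus libraries (log2 difference −0.41, SE 0.24; edgeR, adjusted p = 1.00). Without cerebellum 2 this difference was −0.19. Libraries did not overlap in that direction for 3.55% of genes. In order of the means, hippocampus and striatum (139.8 ± 27.4 CPM) were level, cerebellum (105.3 ± 30.5 CPM) came next and cortex last, and the libraries of neighbours in that order overlapped.

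Gaa encodes acid alpha-glucosidase, the lysosomal enzyme that degrades glycogen and is lost in Pompe disease. It lies on chromosome 11, from 119267887 to 119285454 on the plus strand. It had 310.2, 236 and 307 CPM in hippocampus 1, 2 and 3, against 164, 168 and 268 CPM in cortex 1, 2 and 3. Cortex 1 and 2 were low, whereas cortex 3 lay within the hippocampus range. The means were 285 ± 41.9 CPM in hippocampus and 200.2 ± 58.9 CPM in cortex (log2 difference 0.51, SE 0.29, 95% interval −0.12 to 1.14; edgeR, unadjusted p = 0.106). Its difference was the largest of the 7 genes between these regions and its spread within regions was the largest too, at 0.39 on the log2 scale. Without cortex 3 the log2 difference was 0.77 (edgeR, unadjusted p = 0.0284, adjusted p = 1.00), and no other of the 7 genes had an unadjusted p under 0.05 in any fit run for this comparison. In striatum Gaa was at 229, 409.8 and 251 CPM in libraries 1, 2 and 3, with striatum 2 highest of all 12 libraries, and in cerebellum at 191, 187 and 323 CPM.

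Man2b1, the lysosomal alpha-mannosidase that trims glycoprotein sugars and is lost in alpha-mannosidosis, lies on chromosome 8 from 85083270 to 85098282 on the plus strand. It was at 1569, 1738 and 1998 CPM in hippocampus 1, 2 and 3, against 1429, 1684 and 1604 CPM in cortex 1, 2 and 3. The ranges overlapped, and the log2 difference was 0.17 (SE 0.13, 95% interval −0.12 to 0.46). Without hippocampus 3 it was 0.071 and without cortex 1 it was 0.10. Striatum had the highest mean, at 1871 ± 169 CPM, followed by hippocampus at 1768 ± 216, cerebellum at 1695 ± 17.1 and cortex at 1572 ± 130 CPM (SD, n = 3 each), and neighbours in this order overlapped. The cerebellum libraries were close together, from 1680 to 1714 CPM.

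Hexa encodes the alpha subunit of beta-hexosaminidase A, which with the activator protein of Gm2a degrades GM2 ganglioside and is lost in Tay-Sachs disease. It lies on chromosome 9, from 59539540 to 59565109 on the plus strand. Its level was 1157, 1649 and 1152 CPM in hippocampus 1, 2 and 3, against 1161, 878 and 1355 CPM in cortex 1, 2 and 3. One hippocampus library stood above the others while its 2 companions lay inside the cortex range (log2 difference 0.22, SE 0.20, 95% interval −0.22 to 0.66). Without hippocampus 2 the log2 difference was 0.028, without cortex 2 it was 0.066 and without cortex 3 it was 0.37. Striatum was at 1201 ± 36.2 CPM and cerebellum at 1208 ± 242 CPM. Hexa shares 255 exonic bases with Tmem202 on the opposite strand, which had 271 counts over the 12 libraries.

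Gm2a, the activator gene, was at 341 ± 21.2 CPM in hippocampus and 306 ± 33.4 CPM in cortex (log2 difference 0.16, SE 0.18).

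Gusb, the beta-glucuronidase that acts on glycosaminoglycans and is lost in Sly syndrome, lies on chromosome 5 from 129989011 to 130003049 on the minus strand. It was the most even of the 7 genes, with 1007, 1165 and 1064 CPM in hippocampus 1, 2 and 3, against 893, 961 and 1102 CPM in cortex 1, 2 and 3. The libraries overlapped (log2 difference 0.13, SE 0.14, 95% interval −0.16 to 0.43). Without cortex 1 the log2 difference was 0.062, without hippocampus 2 it was 0.070 and without cortex 3 it was 0.22. Its highest library was 1.30-fold its lowest over all 12, and its spread within regions was 0.12 on the log2 scale. Of 7659 tested genes with a mean of at least 20 CPM, 99.5% had a larger spread within regions. The median spread of those genes was 0.42.

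Naglu encodes alpha-N-acetylglucosaminidase, which degrades heparan sulfate and is lost in Sanfilippo syndrome type B. It lies on chromosome 11, from 101070012 to 101077672 on the plus strand. It was at 269, 327 and 299.9 CPM in hippocampus 1, 2 and 3, against 304, 230.1 and 338 CPM in cortex 1, 2 and 3. The cortex libraries enclosed the hippocampus range, and the log2 difference was 0.04 (SE 0.20, 95% interval −0.40 to 0.48). Its sign turned without cortex 2 (−0.11) and without hippocampus 2 (−0.032). Striatum had the lowest mean, at 265 ± 50.9 CPM, and cerebellum the highest, at 305 ± 49.2 CPM.

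Lipa, the one lipid hydrolase of the set, encodes lysosomal acid lipase, which frees cholesterol and fatty acids from cholesteryl esters and triglycerides and is lost in Wolman disease. It lies on chromosome 19, from 34492318 to 34527474 on the minus strand. It was at 209.8, 280.5 and 289 CPM in hippocampus 1, 2 and 3, against 162, 223 and 300.2 CPM in cortex 1, 2 and 3. The cortex values spanned the hippocampus range on both sides (log2 difference 0.19, SE 0.24, 95% interval −0.34 to 0.71). Without cortex 1 the sign turned (−0.013). Striatum had the highest mean, at 278 ± 60.3 CPM, and cerebellum the lowest, at 215 ± 24.5 CPM.

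**Figure D2:**
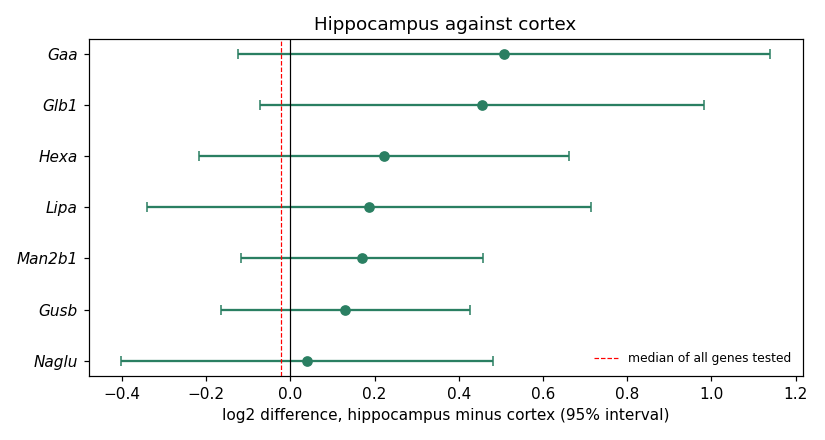
Fitted log2 difference of each gene, hippocampus minus cortex (horizontal axis), with its 95% interval; the dashed line marks the median of all 12217 genes tested (−0.02). The 7 points run from 0.04 for Naglu to 0.51 for Gaa, and all intervals include 0.

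For each of the 7 genes the SD of log2 CPM within regions was larger than the SD between the region means (0.29 against 0.26 for Glb1, 0.13 against 0.10 for Man2b1). The first is a spread of single libraries and the second a spread of means of 3 libraries, which vary less. Their order therefore does not tell whether the regions differ. The mean log2 deviation of the 7 genes from their 12-library means was 0.02, 0.18 and 0.16 in hippocampus 1, 2 and 3, against −0.28, −0.25 and 0.12 in cortex 1, 2 and 3. Cortex 1 and cortex 2 were low, and cortex 3 lay above hippocampus 1. With Glb1 and Gaa left out, the mean deviation was −0.10, 0.22 and 0.11 in hippocampus 1, 2 and 3. In cortex 1, 2 and 3 it was then −0.20, −0.20 and 0.15. In cortex 2 and in cerebellum 2, 0 of the 7 genes lay above their own mean, whereas 6 of 7 did in hippocampus 2, hippocampus 3 and striatum 2. Together the 7 genes took 5149 ± 444 CPM in hippocampus and 4510 ± 497 CPM in cortex (SD, n = 3 each), with ranges of 4664 to 5536 and 4203 to 5083 CPM that overlapped. Cortex 1, cortex 2 and cerebellum 2 held 12703936, 14833340 and 12566066 counts, hippocampus 3 and striatum 3 held 12897889 and 12696248, and the part of depth in these deviations was not tested.

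**Figure D3:**
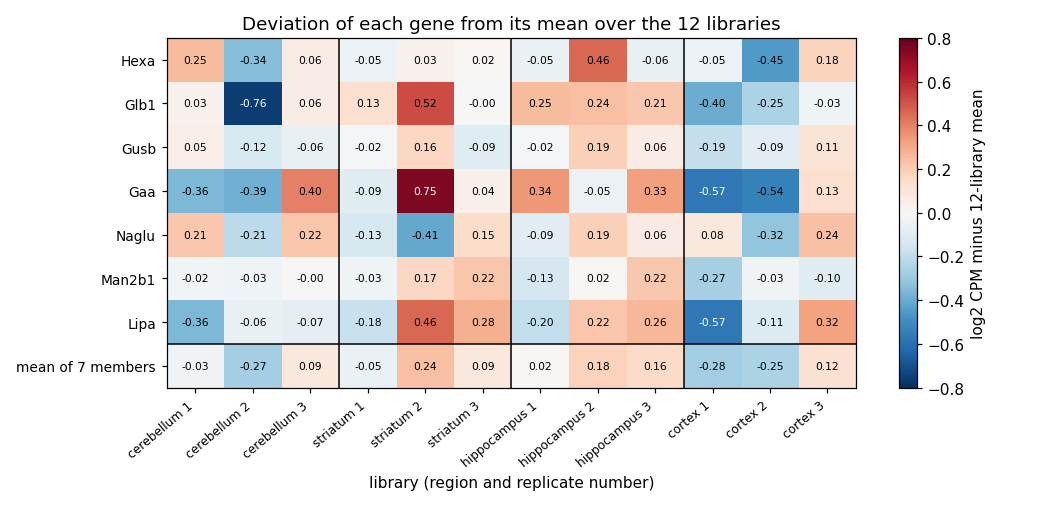
Log2 CPM of each gene minus its mean over the 12 libraries (colour and printed value), by library, with the mean of the 7 genes in the bottom row. Cortex 1 (−0.28), cerebellum 2 (−0.27) and cortex 2 (−0.25) have the lowest means, and cortex 3 (0.12) lies among the hippocampus libraries (0.02 to 0.18).

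Over the 4 regions together, none of the 7 genes passed (edgeR quasi-likelihood F test, adjusted p = 1.00 each; 0% of 12217 genes passed, and 1.82% had an unadjusted p under 0.05). The smallest unadjusted p among them was 0.150 for Glb1, followed by 0.238 for Gaa. Differences between region means made up 48.2% of the log2 variance of Glb1, 43.8% for Man2b1 and 34.6% for Gaa. The share was 24.4% for Lipa, 21.7% for Gusb, 13.8% for Naglu and 11.8% for Hexa. With 4 means of 3 libraries each, such a share lies well above 0 even where regions do not differ.

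In the other pairs of regions the directions were mixed and none of the 7 genes passed the test. Between striatum and cortex, 6 of 7 genes lay higher in striatum, with a median log2 difference of 0.25 against −0.06 for all genes tested (edgeR, smallest adjusted p = 0.80; 45.7% of all genes lay higher). Microglia markers lay higher in striatum in 8 of 10, with sums of 31351 to 37268 CPM in striatum and 29634 to 30409 CPM in cortex that did not overlap. Choroid plexus and ependymal markers lay higher in 4 of 4 tested, with sums of 42.3 to 676.5 CPM in striatum and 0 to 78.4 CPM in cortex that overlapped. Between cerebellum and cortex, 6 of 7 lay higher in cerebellum, with a median of 0.07 against 0.01 for all genes and with 50.9% of all genes higher. Microglia markers lay higher in cerebellum in 10 of 10, with a median log2 difference of 0.21 and with sums of 30664 to 40648 CPM in cerebellum and 29634 to 30409 CPM in cortex that did not overlap. Oligodendrocyte markers lay higher in 4 of 4 tested, with sums of 23.3 to 49.5 CPM in cerebellum and 28.9 to 31.1 CPM in cortex that overlapped. Between striatum and hippocampus, 3 lay higher and 4 lower in striatum (median −0.0008, all genes −0.05, with 46.1% of all genes higher). Between cerebellum and hippocampus, 1 lay higher and 6 lower in cerebellum (median −0.13, all genes 0.01, with 51.3% higher), and between cerebellum and striatum, 2 lay higher and 5 lower (median −0.14, all genes 0.06, with 55.7% higher). Border-associated macrophage markers lay lower in cerebellum than in hippocampus in 6 of 7, with overlapping sums of 255 to 654 CPM in cerebellum and 372 to 681 CPM in hippocampus. Against cortex (277 to 857 CPM, overlapping) they also lay lower in cerebellum in 6 of 7. Between striatum and hippocampus, choroid plexus and ependymal markers lay higher in striatum in 4 of 4, with overlapping sums (hippocampus 0 to 47.3 CPM). Neuronal markers lay lower in striatum in 5 of 5, with sums of 3.96 to 4.97 CPM against 6.83 to 29.9 CPM in hippocampus, without overlap. Choroid plexus and ependymal markers lay lower in cerebellum than in striatum in 4 of 4, with overlapping sums of 0.347 to 223 CPM in cerebellum and 42.3 to 676.5 CPM in striatum. The part of these markers in the differences between regions was not tested. These pairs share libraries, so their directions are not separate results. None of the 7 genes passed at an unadjusted p under 0.05 in these pairs, where the share of all genes tested that did so was, higher and lower, 3.6% and 1.99% between striatum and cortex, 0.974% and 0.573% between cerebellum and cortex, 2.78% and 1.56% between striatum and hippocampus, 0.72% and 0.557% between cerebellum and hippocampus, and 1.01% and 1.38% between cerebellum and striatum. Genes whose libraries did not overlap with the lower values in striatum made up 5.96% against cortex. The shares without overlap, higher and lower, were 3.82% and 2.93% between cerebellum and cortex, 4.9% and 6.59% between striatum and hippocampus, and 3.95% and 2.4% between cerebellum and striatum, and 0 of the 7 genes were among them. Between cerebellum and hippocampus 4.08% of genes lay higher without overlap.

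Of 42 other lysosomal genes (4 lists and Ctsa), 41 were tested between hippocampus and cortex. There were 33 higher and 8 lower in hippocampus, with a median log2 difference of 0.15, and 0 passed the test (edgeR, adjusted p = 1.00 each; 1 gene at an unadjusted p under 0.05). Of all genes tested 47.1% lay higher. These lists too were chosen with earlier results of these data known, and the same libraries enter every gene. Their direction is therefore no independent evidence. Among 14 other glycosidases, 11 lay higher and 3 lower (median 0.20).

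Among 10 sulfatases and heparan sulfate enzymes, 8 lay higher and 2 lower (median 0.13). Sumf1, the enzyme that activates all sulfatases, was at 211, 208 and 215 CPM in hippocampus 1, 2 and 3, against 136, 172 and 136 CPM in cortex 1, 2 and 3. Its libraries did not overlap (log2 difference 0.51, SE 0.22; edgeR, unadjusted p = 0.0398, adjusted p = 1.00), a pattern with hippocampus higher that 3.63% of all genes showed. Arsa, the arylsulfatase A of metachromatic leukodystrophy, went the other way, with 53.8, 57.7 and 61.2 CPM in hippocampus 1, 2 and 3, against 93.1, 62.5 and 80.4 CPM in cortex 1, 2 and 3. Its libraries did not overlap either (log2 difference −0.45, SE 0.25; edgeR, unadjusted p = 0.0961), a pattern with hippocampus lower that 3.05% of all genes showed.

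All 11 tested genes of lipid hydrolysis and lipid transfer lay higher in hippocampus (median 0.16), where 47.1% of all genes tested did. The smallest p belonged to Ppt1, a palmitoyl-protein thioesterase, at 495.5 ± 79.3 CPM in hippocampus and 404 ± 46.4 CPM in cortex (log2 difference 0.30, SE 0.18). Psap, the precursor of the saposins that present lipids to hydrolases, was at 2257 ± 254 and 1946 ± 33.5 CPM in hippocampus and cortex (0.21, SE 0.14) without overlap of libraries, and the acid ceramidase gene Asah1 at 970.4 ± 65.3 and 808 ± 112 CPM (0.26, SE 0.18). A further list held genes of the mannose 6-phosphate route, by which newly made hydrolases reach the lysosome. It also held Sort1, a sorting receptor gene outside that route (log2 difference 0.09, SE 0.30). On this list, 2 of 5 tested genes, with Sort1 among them, lay higher and 3 lower (median −0.01). Nagpa, the uncovering enzyme of the mannose 6-phosphate tag, differed by −0.21 (SE 0.22), the receptor gene M6pr by 0.14 (SE 0.15, libraries without overlap) and Gnptg, a subunit of the tagging enzyme, by −0.18 (SE 0.31). A gap with hippocampus higher, as for Psap and M6pr, was found for 3.63% of all genes tested. The partners of Glb1 in its lysosomal complex were Ctsa, the protective protein, at 2188 ± 362 CPM in hippocampus and 1950 ± 552 CPM in cortex (0.17, SE 0.21), and Neu1, the sialidase, at 111 ± 17.5 and 121 ± 7.495 CPM (−0.12, SE 0.25).

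**Figure D4:**
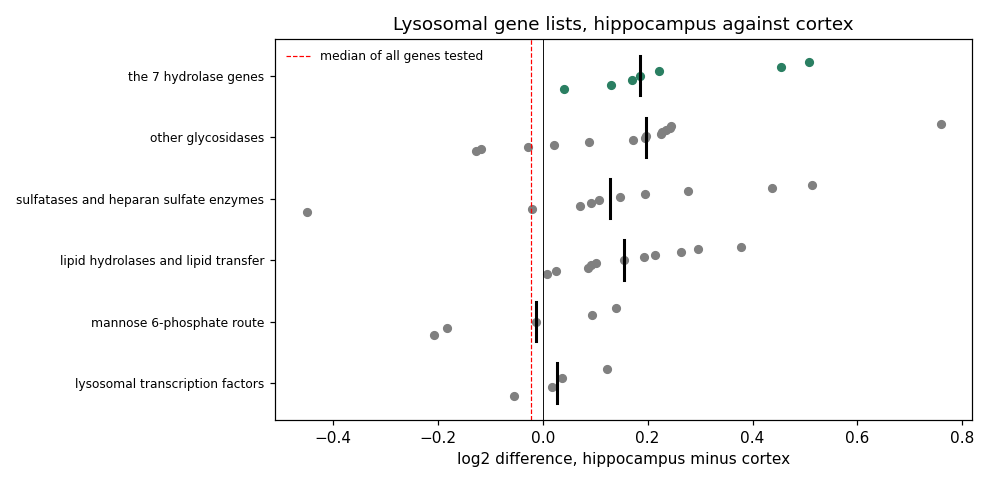
Fitted log2 differences, hippocampus minus cortex, of the 7 hydrolase genes (green) and of the genes of the 4 other lysosomal lists and of the transcription factors (grey); each point is a gene, black ticks are list medians, and the dashed line is the median of all genes tested (−0.02). The medians are 0.19 for the 7 genes, 0.20 for other glycosidases, 0.13 for sulfatases and heparan sulfate enzymes and 0.16 for lipid hydrolases and lipid transfer. They are −0.01 for the mannose 6-phosphate route, a list that also holds Sort1, and 0.03 for the transcription factors.

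The transcription factors of the MiT/TFE family switch on lysosomal genes through an E-box, the sequence CACGTG, in their promoters. Between hippocampus and cortex, Tfeb was at 45.9 ± 5.56 and 44.8 ± 9.86 CPM (log2 difference 0.04, SE 0.33, 95% interval −0.67 to 0.75), Tfe3 at 235 ± 21.8 and 232 ± 53.7 CPM (0.02, SE 0.19), and Tfec at 10.96 ± 3.11 and 10.1 ± 1.64 CPM (0.12, SE 0.53). Mitf, the fourth of them, differed by −0.05 (SE 0.90).

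Promoter windows of 250 bases before to 50 after the start were matched for all 7 genes in RefSeq (GRCm38.p6). The motif TCACGTG, which contains the E-box CACGTG, was searched on both strands and found in 3 of the 7, those of Gaa, Glb1 and Naglu, and in 3.77% of all 32851 windows (CACGTG alone in 7.15%). Of the 39 windows matched for 31 of the 42 other lysosomal genes, 9 held it (23.1%). A longer motif that contains TCACGTG and reads the same on both strands was searched as well. It was found in 0 of the 7 windows, in 1 of the 39 (2.56%) and in 0.326% of all windows. So rare a motif would be missing from most sets of 7 windows. The TCACGTG match stood 49 bases before the RefSeq start in Glb1, 74 in Naglu and 141 in Gaa. The gene positions given above are from GENCODE, and their starts differ from those of RefSeq. By the GENCODE start of Naglu (101070012) the match lies just inside the gene, and the GENCODE start of Gaa (119267887) lies closer to its match. These 3 genes include the largest and the smallest hippocampus difference of the set, and a match of letters is not a binding site. The sequences are shown so that the shared motif, in capitals, can be compared; that of Glb1 is the whole window (chr9:114400828-114401127, plus strand), and those of Gaa (chr11:119267782-119267868, plus strand) and Naglu (chr11:101069980-101070066, plus strand) are the 87 bases around the match.
Glb1: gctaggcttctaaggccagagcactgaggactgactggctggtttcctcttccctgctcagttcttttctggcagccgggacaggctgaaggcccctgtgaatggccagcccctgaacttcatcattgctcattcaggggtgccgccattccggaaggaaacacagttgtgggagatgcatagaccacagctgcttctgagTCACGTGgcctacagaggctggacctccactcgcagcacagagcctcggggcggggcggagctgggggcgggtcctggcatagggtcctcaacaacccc
Gaa: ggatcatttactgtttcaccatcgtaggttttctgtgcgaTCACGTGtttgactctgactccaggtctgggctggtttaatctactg
Naglu: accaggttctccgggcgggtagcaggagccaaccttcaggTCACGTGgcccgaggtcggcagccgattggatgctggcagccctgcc

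The genes most like the set were sought by Pearson r between log2 CPM of a gene and the mean log2 deviation of the 7 genes over the 12 libraries, among 7211 named genes with a mean of at least 20 CPM. The highest was Mfsd1, which encodes a lysosomal membrane transporter (r = 0.93), followed by Gnpda1, a glucosamine-6-phosphate deaminase (0.93), Pld3, a lysosomal exonuclease (0.92), Lamp1, a lysosomal membrane protein (0.90), and the protease gene Ctsd (0.90). Without striatum 2 the values were 0.89 to 0.93. These r values are a description of genes ranked by r itself, over libraries that share region and depth, and no p is attached. Of the 7 genes themselves, Glb1 (0.86) and Gaa (0.84) had the highest r with their common mean and Naglu (0.27) the lowest. That mean includes each gene itself, so a high r is partly built in. This holds above all for Glb1 and Gaa, whose highest library was 2.44-fold and 2.49-fold their lowest, the widest ranges of the 7. Without striatum 2 the r of Naglu was 0.68. In striatum 2 Naglu was at its lowest, 216 CPM, while Glb1, Gaa and Lipa were at their highest (171, 409.8 and 330.0 CPM).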

How the data were processed

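RNA of sorted microglia was turned into cDNA with the Smart-Seq v4 kit (9 cycles) and, from 380 pg of cDNA, into 12 Nextera XT libraries (13 cycles), per the labels' protocols; this chemistry keeps no strand. The authors deposited raw counts of reads, 1 whole number for each gene symbol and library, without normalization. The submitters' processing notes name the build mm10 and the tools STAR 2.5.3a, HTSeq, Picard and Trim Galore 0.4.3; what each did, and which annotation was counted, is not given in the sources used here. Reads of 2 genes that overlap on opposite strands are therefore not separable.

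The counts went into edgeR 4.0.16 (R 4.3.3): filterByExpr by region (minimum count 10, minimum total 15), TMM scaling, 1 negative binomial fit of region means over all 12 libraries, and robust quasi-likelihood tests for 6 pairs and for the 4 regions, with Benjamini-Hochberg adjustment over 12217 genes at 0.05. SE is that of this fit. Alternatives were RLE size factors, total counts alone, no filter, DESeq2 1.42.0, limma-voom (limma 3.58.1), only the libraries of the 2 regions, a replicate block, and each library left out. Log2 CPM used a prior count of 2. Gene positions and transcript lengths (the longest principal coding transcript) came from GENCODE M21 (GRCm38, the assembly of mm10), promoters from RefSeq (GRCm38.p6).

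The members and the gene lists were chosen with earlier results of these data known. By rule, the 7 genes were always named with values per library; in other pairs a member's difference was given where libraries did not overlap; from each list the 3 genes with the smallest p between hippocampus and cortex were named, and Gm2a, Ctsa, Neu1 and Tfeb always, except for some genes that are not reported here; the 5 genes most like the set were taken by r. Tmppe, Tmem202, Mitf, Sort1, Ly6c2, Mrc1, Slc1a3, Pecam1 and Cldn5 were named outside this rule, after their values were seen. Pairs of libraries of one region had chi-square values of 29.8 to 80.5 per degree of freedom, far above sampling noise, and none was counted as a copy. A count of 0 allows up to 3 counts, at most 0.485 CPM, which covers counting error only.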

Additional observations from a re-analysis of the deposited data

How the results depend on the processing

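For the 7 genes between hippocampus and cortex, 0 passed the adjusted threshold in the edgeR fit and in each of the 19 alternatives. All 7 lay higher in hippocampus in all but 3 of those 19; the exceptions left out a library, where the log2 difference of Lipa was −0.013 without cortex 1 and that of Naglu was −0.11 without cortex 2 and −0.032 without hippocampus 2. Over all libraries left out in turn, Lipa ran from −0.013 to 0.43 and Naglu from −0.11 to 0.16, both highest without cortex 3. The median log2 difference of the 7 genes was 0.19, ran from 0.15 to 0.24 in the 7 alternatives that left out no single library, and ran from 0.10 (without cortex 1) to 0.37 (without cortex 3) when libraries were left out. Scaling moved the median of all genes by less than 0.1: it was −0.02 with TMM, −0.02 with RLE and −0.06 with total counts. Over all genes, edgeR called 0 in each pair and over the 4 regions. DESeq2 called 5 between hippocampus and cortex, 12 between striatum and cortex, 7 between cerebellum and cortex, 2 between cerebellum and hippocampus, 3 between cerebellum and striatum and 5 over the 4 regions; the cause was not tested. At an unadjusted p under 0.05, edgeR gave 124 genes between hippocampus and cortex, DESeq2 176 and limma-voom 195. The labels number the replicates 1 to 3 in each region without saying that a number marks shared mice or a day. Same-numbered libraries of different regions had residual correlations of −0.12 to 0.29 (4 of 18 over 0.1, against 2 of 36 between libraries of other numbers), and 9 of 12 libraries correlated best with one of their own number, a hint from the data that the number may mark something shared. The criterion for pairing 2 regions was that all 3 same-numbered pairs were over 0.1. Only cerebellum and cortex met it (0.29, 0.10 and 0.22), and in each of the other 5 pairs of regions at least 1 was not over 0.1. The values of the 7 genes given above for cerebellum and cortex are nevertheless those of the fit without a block. With the replicate block edgeR called 0 genes in each comparison, and the median of the 7 genes was 0.21. Where a region kept 2 libraries, the spread was pooled over all regions.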
